A study of Mus musculus with 6 samples.

Results

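The 10 genes described here encode proteins that join, divide and remove mitochondria, and they were measured in mouse blastocysts cultured with extracellular vesicles from the human oviduct. Mfn1, Mfn2 and Opa1 act in mitochondrial fusion, Dnm1l, Fis1 and Mff act in fission, and Pink1, Bnip3, Bnip3l and Fundc1 act in mitophagy, the removal of mitochondria by autophagy. They were chosen by symbol for these roles and not by their measured values, although earlier results of these data were known at the time. Each matched 1 of the 55774 rows of the expression table through its Ensembl identifier. All 10 were expressed in every library, with levels from 1.94 FPKM for Mfn2 to 562 FPKM for Bnip3. None of the 10 differed between the groups past the test, and for 2 of them, the fission genes Fis1 and Mff, all oEV-EMT libraries lay above all oEV-ctrl libraries. Both counts were near those of the whole table. Of all 11924 tested genes 0 were called, and for 18.1% all oEV-EMT libraries lay above all oEV-ctrl libraries.

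Embryos of ICR mice at the 2-cell stage, labelled wild type, were cultured in CZB medium with extracellular vesicles (EVs) isolated from human Fallopian tubes. The oEV-EMT group received EVs from women with endometriosis, a disease in which endometrium-like tissue grows outside the uterus. The oEV-ctrl group received EVs from women that the sample labels describe as having uterine fibroids, while the methods of the study describe another gynaecological condition, so the control is a patient group and not a culture without EVs. Embryos of both groups were cultured for 75 h, and each library held polyA-selected RNA of 10 pooled blastocysts, with 3 libraries per group. Since nothing says that the pools of a group received EVs of separate donors, the p-values measure the spread between libraries only.

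Mitochondria form a network that fuses and divides. The mitofusins Mfn1 and Mfn2 join the outer membranes and the dynamin-like GTPase Opa1 joins the inner membranes, while the GTPase encoded by Dnm1l (also called Drp1) is recruited from the cytosol by outer membrane adaptors such as Mff and Fis1 and constricts the organelle. Damaged mitochondria can be marked with ubiquitin for autophagy through the kinase PINK1, or can be bound directly to the autophagosome by receptors in their outer membrane, among them BNIP3, NIX (encoded by Bnip3l) and FUNDC1. In mouse preimplantation embryos the mitochondria are inherited from the oocyte and are at first round with few cristae, and they become longer and richer in cristae towards the blastocyst.

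The sequences needed to read 2 of the results are given first. Bnip3l has a near-identical copy elsewhere in the genome, Bnip3l-ps, annotated as a transcribed processed pseudogene at chr12:18216542-18217673 on the plus strand (GENCODE M21, GRCm38). Its 1132 bases align to positions 38 to 1169 of the Bnip3l transcript of 3238 bases with 8 differences, an identity of 99.3%, and the longest identical stretch is 393 bases. The stretch of 100 bases shown here lies in the coding sequence of the second coding exon of Bnip3l, at chr14:66999527-66999626 on the minus strand, and its counterpart lies at chr12:18216773-18216872 on the plus strand. The capitals mark the 3 bases that differ, the only letters in this stretch by which a read could be assigned to either gene.
Bnip3l: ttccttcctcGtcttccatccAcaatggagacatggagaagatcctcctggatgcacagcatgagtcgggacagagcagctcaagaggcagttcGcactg
Bnip3l-ps: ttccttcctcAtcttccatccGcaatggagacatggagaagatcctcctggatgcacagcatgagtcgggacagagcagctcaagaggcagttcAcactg

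The promoter windows of 3 members are shown because Bnip3 was the most abundant of the 10 genes and because Fis1 and Mff were those whose groups did not overlap. The windows run from 250 bases before to 50 bases after the annotated start (RefSeq, GRCm38.p6) and are written in the direction of the gene. They lie at chr7:138909457-138909756 on the minus strand for Bnip3, chr5:136953025-136953324 on the plus strand for Fis1 and chr1:82724640-82724939 on the plus strand for Mff. Capitals mark matches, on either strand, to ACGTG (the core of the hypoxia response element) or CCGGAAGT (a site of ETS factors).
Bnip3: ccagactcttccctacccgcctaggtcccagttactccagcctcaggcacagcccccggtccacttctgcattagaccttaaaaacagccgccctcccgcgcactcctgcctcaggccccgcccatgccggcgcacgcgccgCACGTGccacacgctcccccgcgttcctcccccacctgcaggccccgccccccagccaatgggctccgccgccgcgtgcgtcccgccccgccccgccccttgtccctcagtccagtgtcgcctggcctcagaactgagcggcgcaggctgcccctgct
Fis1: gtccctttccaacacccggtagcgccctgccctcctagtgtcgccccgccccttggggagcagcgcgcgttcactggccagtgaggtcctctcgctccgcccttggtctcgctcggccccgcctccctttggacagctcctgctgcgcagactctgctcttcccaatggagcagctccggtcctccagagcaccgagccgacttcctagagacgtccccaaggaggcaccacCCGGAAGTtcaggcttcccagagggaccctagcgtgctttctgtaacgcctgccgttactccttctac
Mff: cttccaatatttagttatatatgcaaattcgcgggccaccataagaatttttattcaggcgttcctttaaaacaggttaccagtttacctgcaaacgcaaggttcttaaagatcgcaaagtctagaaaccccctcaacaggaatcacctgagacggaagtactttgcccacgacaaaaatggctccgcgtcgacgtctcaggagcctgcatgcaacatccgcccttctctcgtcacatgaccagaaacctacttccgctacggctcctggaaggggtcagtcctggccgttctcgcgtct
The window of Bnip3 held ACGTG once on each strand, as the palindrome CACGTG. The window of Fis1 shown here held CCGGAAGT. The window of Mff held no exact match to either motif, and near matches, such as its ACGGAAGT, were not counted. Of the 10 genes 9 had a window, 14 windows in all. ACGTG was found in 3 windows of 2 genes (Mfn2 and Bnip3) and CCGGAAGT in 3 windows of 2 genes (Mfn1 and Fis1). The 2 windows of Mfn2 with ACGTG overlap and hold the same site, so windows are not a count of separate sites. Fis1 held CCGGAAGT in the window shown and in another window. Of all 32851 windows in the table, 19.6% held ACGTG and 3.89% held CCGGAAGT. The matches are a description of these letters, and binding of a factor was not measured.

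The labelled tissue was checked against its markers. All 8 trophectoderm markers, all 7 epiblast and inner cell mass markers and all 7 primitive endoderm markers were expressed at levels that were tested, while all markers of cumulus and granulosa cells, of oviduct epithelium and of fibroblasts lay under 1 FPKM in every library. The summed level of the 8 trophectoderm markers was 3140 to 4764 FPKM in oEV-EMT and 3091 to 4853 FPKM in oEV-ctrl libraries. In every library most of this trophectoderm sum was Krt8 and Krt18, so it says little of the other markers. The summed level of the 7 epiblast and inner cell mass markers was 105.8 to 147 FPKM in oEV-EMT and 59.2 to 103 FPKM in oEV-ctrl, without overlap, and the groups of 3 of them (Nanog, Pou5f1 and Fgf4) did not overlap, all higher in oEV-EMT. Relative to the median log2 fold change of all tested genes, 4 of the 7 lay above and 3 below, namely Sox2 at -0.49, Esrrb at -0.23 and Klf2 at -0.10. Of the 7 blood and immune markers 2 were tested and Ptprc, Hbb-bs and Itgam were listed at 0 in all libraries, with a summed level of 7.57 to 15.8 FPKM in oEV-EMT and 4.83 to 7.80 FPKM in oEV-ctrl, and of the 7 oocyte markers 3 were tested, at 86.5 to 117 against 48.1 to 86.6 FPKM. Most of the first sum was Cd68, at 6.24, 12.5 and 14.2 FPKM in oEV-EMT and 3.55, 5.89 and 6.21 FPKM in oEV-ctrl, without overlap. Most of the oocyte sum was Ooep, whose groups overlapped, while those of Zp3 did not overlap, with oEV-EMT higher. The 7 primitive endoderm markers summed to 135 to 263 FPKM in oEV-EMT and 181 to 237 FPKM in oEV-ctrl, and the groups of 2 of them (Gata4 and Sox7) did not overlap, both higher in oEV-EMT. Relative to the median log2 fold change of all tested genes, 3 of these 7 lay above and 4 below, with Dab2 at -0.43 and Gata6 at -0.36 the lowest. Of the 8 trophectoderm markers 1 lay above that median and 7 below. Of all tested genes 22.4% did not overlap, 18.1% with oEV-EMT higher. The 2 groups also did not overlap in the share of all FPKM taken by mitochondrially encoded genes, 3.93 to 4.84% in oEV-EMT and 5.96 to 7.45% in oEV-ctrl, or in the share taken by 1 unannotated entry, 15.3 to 19.0% against 19.7 to 31.5%. In pooled blastocysts, fewer cells of a type and less RNA per cell cannot be told apart, and the part of these differences in the results on the 10 genes was not tested.

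The 10 genes differed in level far more than any of them differed between groups. FPKM is a value per kilobase and can be compared between genes. Bnip3 stood first in 6 of 6 libraries and took 45.7 to 58.1% of the summed FPKM of the 10 genes in oEV-EMT and 47.2 to 60.6% in oEV-ctrl. Fis1 and Mff followed, then Bnip3l, Fundc1, Dnm1l, Mfn1, Opa1, Pink1 and Mfn2. In this order, 3 neighbouring pairs had ranges over the 6 libraries that stood apart, namely Bnip3 and Fis1, Bnip3l and Fundc1, and Pink1 and Mfn2. The other neighbours overlapped in range, although within a library the order was the same in 6 of 6 libraries for every pair except Fundc1 over Dnm1l, which held in 4 of 6, and Opa1 over Pink1, which held in 5 of 6. Both exceptions included the library oEV-ctrl 1, where Dnm1l and Pink1 had their highest values. The 2 adaptors of fission were measured at higher levels than the GTPase they recruit in all libraries, and the mitophagy receptors Bnip3 and Bnip3l at higher levels than the kinase Pink1. The plot of FPKM by library shows this order and the spread within each gene.

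**Figure D1:**
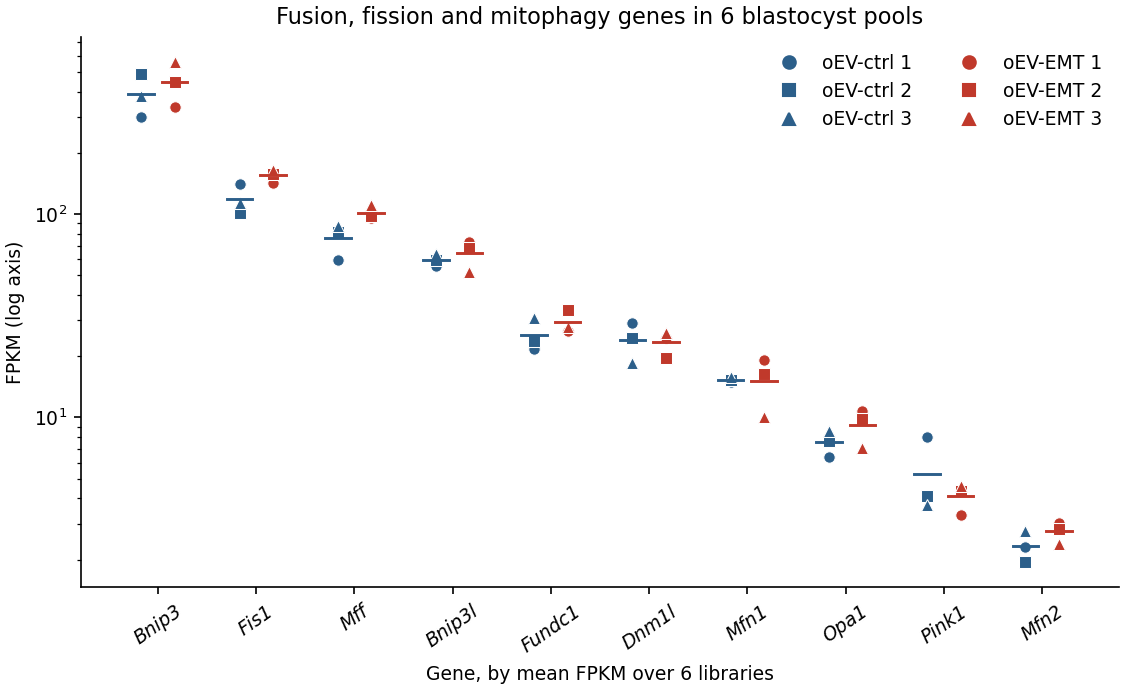
FPKM of the 10 genes on a log axis in each of the 3 oEV-EMT and 3 oEV-ctrl libraries, 1 point per library and a line at each group mean. Bnip3 lies highest at 302 to 562 FPKM and Mfn2 lowest at 1.94 to 3.03 FPKM, and the points of the groups overlap for all genes except Fis1 and Mff.

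The comparison asks whether blastocysts cultured with oEV-EMT differ from those cultured with oEV-ctrl in the expression of each gene. It was fitted with limma on log2(FPKM + 1) over the 11924 genes that reached 1 FPKM in 3 or more libraries. A gene was called where its Benjamini-Hochberg adjusted p-value did not exceed 0.05 and its log2 fold change was 1 or more in size. Of the 10 members 0 were called, and of all tested genes 0 were called, which is 0% of the table. The lowest adjusted p of any gene was 0.0934, and those of the members ran from 0.365 to 0.966. An unadjusted p-value up to 0.05 was found for 0 of the 10 members and for 15.4% of all tested genes. With array quality weights the same thresholds called 0.872% of all tested genes and again 0 members.

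All fold changes are set against the table as a whole, since its median was not at 0. The median log2 fold change of all tested genes (oEV-EMT minus oEV-ctrl) was 0.17, with quartiles of -0.05 and 0.40, and 70.1% of them lay above 0. Of the members 7 lay above 0 and 3 below. Relative to the median of all genes, 6 members lay higher and 4 lower, and the median of the members was 0.014. The median absolute relative log2 fold change was 0.137 for the members and 0.228 for all tested genes. A fold change relative to the median of all genes is called relative below. Both values are on the log2(FPKM + 1) scale, which understates the change of the genes with low levels, here Mfn2 and Pink1.

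**Figure D2:**
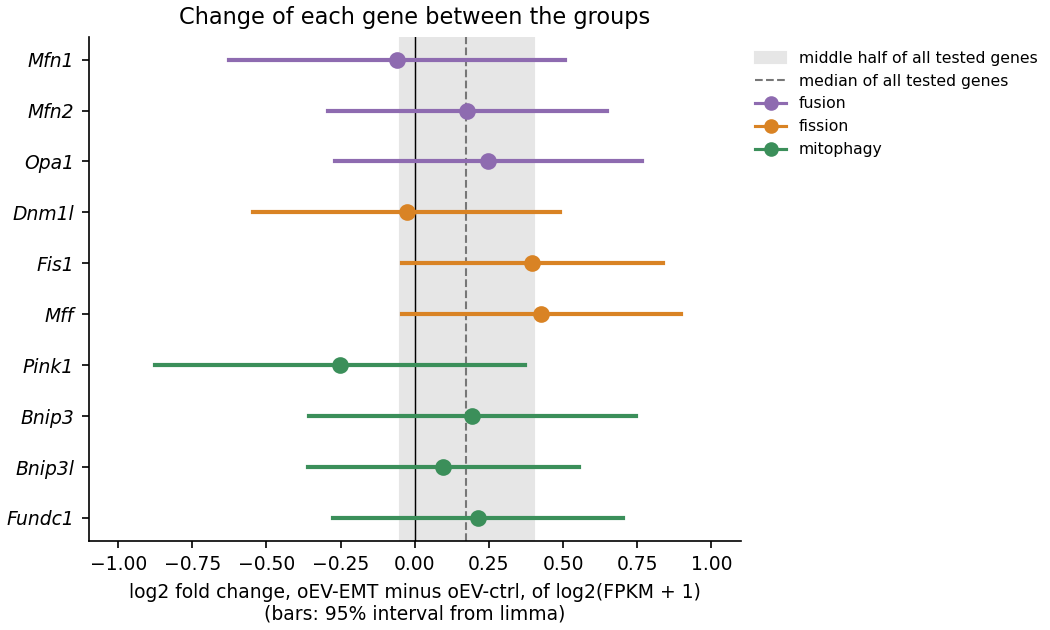
Log2 fold change (oEV-EMT minus oEV-ctrl, of log2(FPKM + 1)) of each of the 10 genes with its 95% interval from limma, beside the median of all tested genes at 0.17 and their quartiles. The intervals of all 10 genes cross 0, and those of Fis1, from -0.04 to 0.84, and Mff, from -0.04 to 0.90, reach furthest above it.

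Among the genes of fusion, Mfn1 encodes the mitofusin that tethers neighbouring outer membranes. It lies at chr3:32529465-32579239 on the plus strand (ENSMUSG00000027668). Its values were 19.3, 16.3 and 10.00 FPKM in oEV-EMT 1, 2 and 3 and 15.0, 15.2 and 15.8 FPKM in oEV-ctrl 1, 2 and 3. The 3 oEV-ctrl values lay inside the range of the oEV-EMT values, and the coefficient of variation was 31.2% in oEV-EMT and 2.56% in oEV-ctrl. Its log2 fold change was -0.06 (SE 0.26, adjusted p = 0.931 by limma), or -0.23 relative. Without oEV-EMT 3 it was 0.20, or -0.014 relative, since the median of all genes was then 0.21. Both remaining oEV-EMT values then lay above the 3 oEV-ctrl values.

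Mfn2, the second mitofusin, also takes part in contacts between mitochondria and the endoplasmic reticulum. It lies at chr4:147873599-147904704 on the minus strand (ENSMUSG00000029020) and was the least abundant of the 10 genes. Its level was 3.03, 2.83 and 2.40 FPKM in oEV-EMT 1, 2 and 3 and 2.30, 1.94 and 2.75 FPKM in oEV-ctrl 1, 2 and 3. Its means were 2.75 ± 0.325 and 2.33 ± 0.408 FPKM (SD, n = 3 per group), and the groups overlapped through oEV-EMT 3 and oEV-ctrl 3. The fold change of 0.18 on the log2 scale (SE 0.21, adjusted p = 0.717 by limma) was at the median of all genes with a relative value of 0.0059.

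Opa1 encodes the GTPase of inner membrane fusion, which also keeps the cristae in shape. It lies at chr16:29579334-29654884 on the plus strand (ENSMUSG00000038084). Its values were 10.7, 9.79 and 7.09 FPKM in oEV-EMT and 6.41, 7.63 and 8.57 FPKM in oEV-ctrl. The libraries oEV-EMT 1 and 2 lay above all oEV-ctrl libraries, while oEV-EMT 3 lay between oEV-ctrl 1 and 2. Between the groups the log2 fold change was 0.25 (SE 0.23, adjusted p = 0.642 by limma), or 0.08 relative.

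The 3 fusion genes shared an order of the oEV-EMT libraries. Each was highest in oEV-EMT 1 of all 6 libraries and each was lowest in oEV-EMT 3 of the 3 oEV-EMT libraries, and their summed level was 33.0, 28.9 and 19.5 FPKM in oEV-EMT 1, 2 and 3. The summed level in the oEV-ctrl libraries was 23.7, 24.8 and 27.1 FPKM, inside that range. The order was not particular to the fusion genes. Bnip3l and genes of other lists, such as Dnm2 and Sqstm1, also fell from oEV-EMT 1 to oEV-EMT 3, and the share of all genes with this order was not counted. The ratio of Mfn1 to Mfn2 was 6.35, 5.75 and 4.17 in oEV-EMT and 6.54, 7.86 and 5.74 in oEV-ctrl. On the log2 scale the ratio differed by -0.24 between the groups (p = 0.5, exact two-sided permutation test, where 0.1 is the smallest p that 3 libraries against 3 allow).

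Among the genes of fission, Dnm1l encodes the GTPase that constricts the organelle. It lies at chr16:16312230-16358959 on the minus strand (ENSMUSG00000022789). Its level was 24.6, 19.6 and 25.9 FPKM in oEV-EMT and 29.1, 24.5 and 18.5 FPKM in oEV-ctrl. The lowest and the highest of the 6 values were both oEV-ctrl libraries. The log2 fold change was -0.03 (SE 0.23, adjusted p = 0.966 by limma), or -0.20 relative. It was below the median of all genes in all 19 fits, and its sign changed in 4 of them.

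Fis1 encodes a small outer membrane protein that binds the fission GTPase. It lies at chr5:136953275-136966234 on the plus strand (ENSMUSG00000019054), with no sequence of 50 bases shared with another annotated gene. Its values were 143, 158 and 164 FPKM in oEV-EMT and 141, 101 and 114 FPKM in oEV-ctrl. All 3 oEV-EMT libraries lay above all 3 oEV-ctrl libraries, with oEV-EMT 1 and oEV-ctrl 1 nearly level. The means were 155 ± 10.9 and 118 ± 20.4 FPKM (SD, n = 3 per group), a log2 fold change of 0.40 (SE 0.20, 95% interval -0.04 to 0.84), or 0.23 relative. The unadjusted p was 0.0725 and the adjusted p was 0.369 in the limma fit, so the difference did not pass the test.

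Mff encodes the adaptor that is the main outer membrane receptor of the fission GTPase. It lies at chr1:82724890-82752394 on the plus strand (ENSMUSG00000026150). It was measured at 95.5, 98.5 and 111 FPKM in oEV-EMT and at 59.2, 81.5 and 87.8 FPKM in oEV-ctrl. All oEV-EMT libraries again lay above all oEV-ctrl libraries, and oEV-ctrl 1 lay well below the other 5. The means were 102 ± 8.06 and 76.2 ± 15.0 FPKM (SD, n = 3 per group), a log2 fold change of 0.43 (SE 0.21, 95% interval -0.04 to 0.90), or 0.26 relative. The adjusted p was 0.365 in the limma fit, the lowest of the 10 genes.

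Fis1 and Mff were thus 2 of 10 members whose groups did not overlap, both higher in oEV-EMT, where 22.4% of all tested genes did not overlap and 18.1% did not overlap with oEV-EMT higher. The share among the members was therefore near that of the table. Median-of-ratios scaling, which brought the median of all genes to 0.01, gave log2 fold changes of 0.20 for Fis1 and 0.23 for Mff, and the groups of both then overlapped, while 20.1% of all genes did not overlap and 9.94% did not overlap with oEV-EMT higher. Both also overlapped after upper quartile scaling and after quantile normalization. Both genes lay above the median of all genes in 19 of 19 fits, including every fit that left out 1 library. These fits reuse the same libraries, and several returned the fold changes of the main fit unchanged, so they are not independent of each other. Without oEV-EMT 3, the groups of 6 members did not overlap, all higher in oEV-EMT (Mfn1, Mfn2, Opa1, Fis1, Mff and Bnip3l), against 36.8% of all genes, 30.6% with oEV-EMT higher. Without oEV-ctrl 3 this held for 4 members (Mfn2, Fis1, Mff and Fundc1), all higher in oEV-EMT, against 33.9% of all genes, 28% with oEV-EMT higher.

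The levels of the 2 adaptors did not vary together across the control libraries. The ratio of Mff to Fis1 was 0.667, 0.625 and 0.673 in oEV-EMT and 0.421, 0.808 and 0.772 in oEV-ctrl. The low ratio in oEV-ctrl 1 came with the lowest Mff and the highest Fis1 value of that group. The log2 ratio was -0.61 ± 0.058 in oEV-EMT and -0.64 ± 0.52 in oEV-ctrl (SD, n = 3 per group), and the difference of 0.03 did not pass an exact two-sided permutation test (p = 1).

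**Figure D3:**
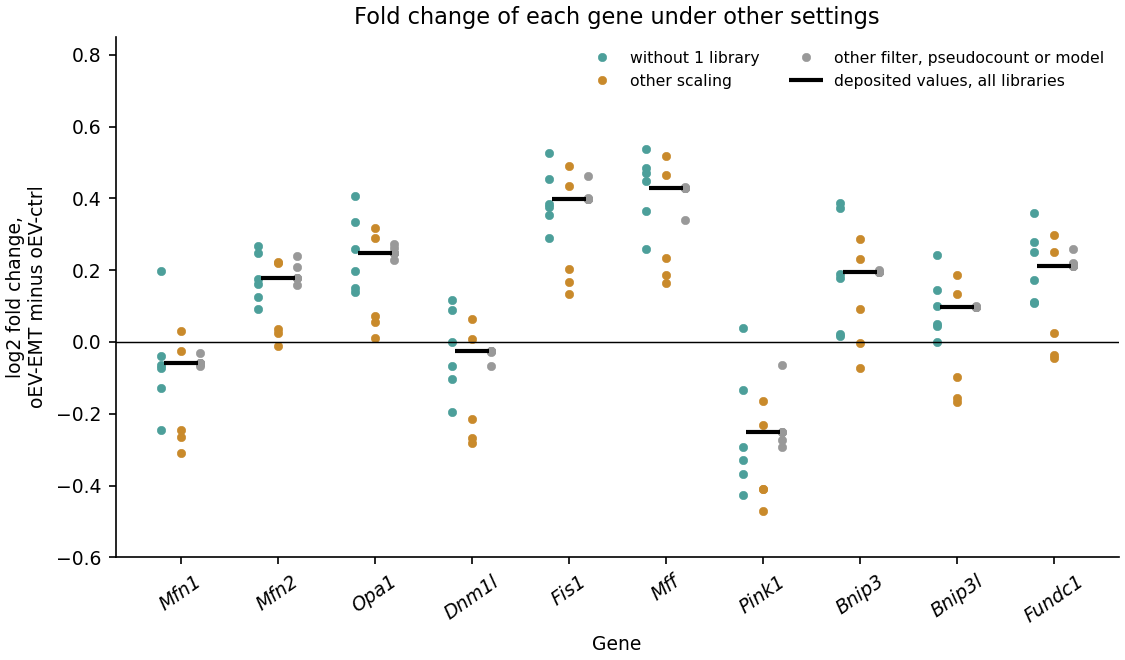
Log2 fold change (oEV-EMT minus oEV-ctrl) of each of the 10 genes, as a line for the deposited values of all libraries and as points for each other scaling, for each other filter, pseudocount or model, and for each fit without 1 library. Fis1, from 0.13 to 0.53, and Mff, from 0.16 to 0.54, lie above 0 at every point, as does Opa1, while the points of the other 7 genes lie on both sides of 0.

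Among the genes of mitophagy, Pink1 encodes the kinase that marks mitochondria which have lost their membrane potential. It lies at chr4:138313409-138326307 on the minus strand (ENSMUSG00000028756). The libraries held 3.30, 4.35 and 4.62 FPKM in oEV-EMT and 8.0, 4.13 and 3.72 FPKM in oEV-ctrl. The library oEV-ctrl 1 stood well above the other 5, which lay close together and were mixed in order. The log2 fold change of -0.25 (SE 0.28, adjusted p = 0.697 by limma) was the lowest of the 10 genes, and without oEV-ctrl 1 it was 0.04. Relative to the median of all genes it was -0.42, and -0.11 without oEV-ctrl 1.

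Bnip3 encodes an outer membrane receptor of mitophagy whose transcription is known to rise in hypoxia. It lies at chr7:138890836-138909519 on the minus strand (ENSMUSG00000078566). Its values were 336, 449 and 562 FPKM in oEV-EMT and 302, 491 and 381 FPKM in oEV-ctrl. The groups were mixed in order, with the lowest value in oEV-ctrl 1 and the highest in oEV-EMT 3, and in every library Bnip3 ranked between the percentiles 96.2 and 97.6 of the tested genes. The means were 449 ± 113 and 391 ± 95.2 FPKM (SD, n = 3 per group), a log2 fold change of 0.19 (SE 0.25, adjusted p = 0.738 by limma), or 0.02 relative. Of the 50-base sequences of Bnip3, 47.2% also occur in 6 other annotated genes, all pseudogenes or noncoding RNAs. Bnip3 was listed with 95.7 to 96.6% of the FPKM summed over these genes and itself. These values already follow the way shared reads were divided, which is not known, so they cannot show which gene the shared reads came from.

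Bnip3l encodes NIX, the receptor through which reticulocytes are known to clear their mitochondria. It lies at chr14:66985239-67008877 on the minus strand (ENSMUSG00000022051). It was measured at 72.9, 68.0 and 51.9 FPKM in oEV-EMT and at 55.3, 59.8 and 63.6 FPKM in oEV-ctrl. As for the fusion genes, oEV-EMT 1 was the highest of all libraries, and here oEV-EMT 3 was the lowest. Between the groups the log2 fold change was 0.10 (SE 0.21, adjusted p = 0.848 by limma), or -0.08 relative.

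Reads of Bnip3l could not always be told from those of its pseudogene, the pair of sequences shown above. The 800 shared sequences of 50 bases make up 20.8% of those of Bnip3l and 73.9% of those of Bnip3l-ps. The pseudogene was listed at 64.9, 73.5 and 74.8 FPKM in oEV-EMT and at 52.5, 55.8 and 62.2 FPKM in oEV-ctrl. It was thus listed at about the level of Bnip3l itself, and its groups did not overlap, with a log2 fold change of 0.32 (SE 0.19, adjusted p = 0.453 by limma). The FPKM ratio of Bnip3l to Bnip3l-ps was 1.05, 1.07 and 1.02 in oEV-ctrl and 1.12, 0.926 and 0.694 in oEV-EMT. This ratio was thus similar across the control libraries and varied more across the others. When FPKM times transcript length in kilobases was summed over both, the values were 309.7, 304 and 253 in oEV-EMT and 239, 257 and 276 in oEV-ctrl. The log2 difference of this sum was 0.16 (p = 0.3, exact two-sided permutation test), and the groups overlapped. How the counting program divided the shared reads was not given in the sources used here, so the level of Bnip3l and its place in the order of the 10 genes are uncertain.

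**Figure D4:**
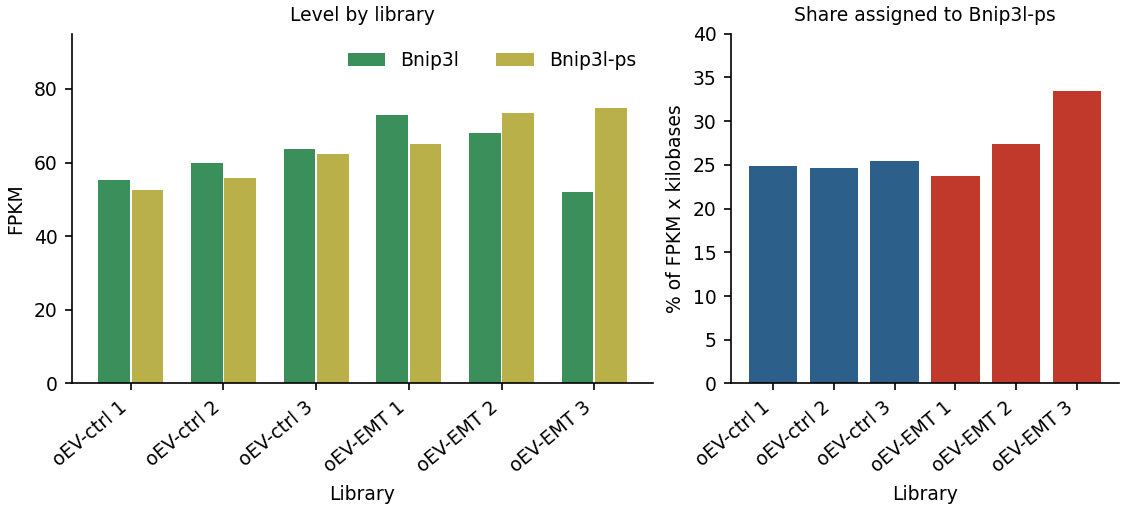
Left, FPKM of Bnip3l and of its pseudogene Bnip3l-ps in each library. Right, the share of FPKM times transcript length in kilobases, summed over both, that was assigned to Bnip3l-ps, which is 24.6 to 25.5% in the 3 oEV-ctrl libraries (blue) and 23.7 to 33.5% in the 3 oEV-EMT libraries (red).

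The receptors Bnip3 and Bnip3l are relatives with unlike patterns across libraries. Their ratio was 4.6, 6.60 and 10.8 in oEV-EMT and 5.45, 8.22 and 6.0 in oEV-ctrl. It was both lowest and highest in oEV-EMT libraries, since oEV-EMT 1 had the highest Bnip3l and the lowest Bnip3 value of its group and oEV-EMT 3 the reverse. The log2 ratio differed by 0.10 between the groups (p = 0.8, exact two-sided permutation test). For the 3 ratios tested the adjusted exact p was 1 in each case.

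Fundc1 encodes a receptor whose phosphorylation is known to control mitophagy in hypoxia, and it lies on the X chromosome at chrX:17556564-17572325 on the minus strand (ENSMUSG00000025040). Its level was 26.7, 34 and 27.8 FPKM in oEV-EMT and 21.6, 23.8 and 31.0 FPKM in oEV-ctrl. The values of oEV-EMT 1 and 3 lay between oEV-ctrl 2 and oEV-ctrl 3, and oEV-EMT 2 lay above all others. The log2 fold change was 0.21 (SE 0.22, adjusted p = 0.673 by limma), or 0.04 relative. The level of Xist, which is transcribed from the inactive X chromosome, ranged from 5.61 to 10.4 FPKM in oEV-EMT and from 4.18 to 21.6 FPKM in oEV-ctrl. Of Xist and 4 genes of the Y chromosome, 4 were tested, and these had overlapping groups and log2 fold changes under the median of all genes. The part of the sex of the pooled embryos in the Fundc1 values was not tested.

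Across the 10 genes, the extremes fell on a few libraries. The library oEV-ctrl 1 gave the lowest value for 4 genes (Opa1, Mff, Bnip3 and Fundc1) and the highest for 2 (Dnm1l and Pink1), and it had the lowest depth as derived from the steps of the low values. The library oEV-EMT 1 gave the highest value for 4 genes (Mfn1, Mfn2, Opa1 and Bnip3l) and the lowest for Pink1, and it had a derived depth 1.98 times that of oEV-ctrl 1. The library oEV-EMT 3 gave the highest value for 3 genes (Fis1, Mff and Bnip3) and the lowest for 2 (Mfn1 and Bnip3l). The part of depth in these extremes was not tested. The fewest reads behind a member value were about 300, for Mfn2 in oEV-ctrl 1, which puts the counting error of that value at about 8.16% if a fragment gave 2 reads, the largest of all member values. This error covers counting only. Mfn2, Dnm1l, Mff and Bnip3 overlap annotated genes on the opposite strand, from which reads cannot be told apart without strand. For Dnm1l this is Gm49521, listed at 2.43 to 4.98 FPKM, and the one partner of Bnip3 named Gm45507 was listed at 0 in all libraries.

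The other genes of the same processes were read from 6 lists of regulators, which hold 78 genes, of which 70 were tested. Of these 0 were called, 35 lay above and 35 below the median of all genes, and the groups of 10 did not overlap, 8 of them higher and 2 lower in oEV-EMT. The table as a whole had 18.1% of genes not overlapping with oEV-EMT higher and 4.34% with oEV-EMT lower.

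The regulators of fusion include the proteases that cleave OPA1, such as OMA1 and YME1L, and the prohibitins. Of 14 tested genes 0 had groups that did not overlap, and the median relative log2 fold change was -0.02. The 6 tested genes of mitochondrial transport along microtubules likewise held 0 genes without overlap, with a median of -0.09.

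The regulators of fission include the further receptors MID49 and MID51 and the phosphatase calcineurin, which acts on the fission GTPase. Of 14 tested genes 3 did not overlap with oEV-EMT higher and 2 with oEV-EMT lower, and the median relative log2 fold change was 0.08. Mief1, which encodes MID51, was measured at 1.15, 4.96 and 4.55 FPKM in oEV-EMT and at 5.97, 5.04 and 6.35 FPKM in oEV-ctrl (log2 fold change -0.71, adjusted p = 0.380 by limma). The value of oEV-EMT 1 stood far below the other 5. Ppp3cb, a catalytic subunit of calcineurin, was measured at 6.85, 5.02 and 6.46 FPKM in oEV-EMT and at 8.38, 9.06 and 7.41 FPKM in oEV-ctrl (log2 fold change -0.39, adjusted p = 0.416 by limma). The 3 genes without overlap and higher in oEV-EMT were Mtfp1, Mtfr1 and Pgam5, with relative log2 fold changes of 0.49, 0.29 and 0.36.

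In the list of other genes around PINK1, 2 of the 10 tested genes lay above and 8 below the median of all genes, with a median of -0.17, and 0 had groups that did not overlap. Pink1, with its relative log2 fold change of -0.42, also lay below the median of all genes, and it did so without oEV-ctrl 1 as well, at -0.11.

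Of the 15 tested mitophagy receptors and adaptors other than the members, 4 did not overlap with oEV-EMT higher and 0 with oEV-EMT lower, and the median relative log2 fold change was 0.13. Nipsnap2, whose product is displayed on damaged mitochondria, was measured at 18.4, 18.3 and 15.4 FPKM in oEV-EMT and at 2.46, 15.3 and 3.45 FPKM in oEV-ctrl. Its log2 fold change of 1.54 (SE 0.54, adjusted p = 0.254 by limma) rested on oEV-ctrl 1 and 3, while oEV-ctrl 2 lay at the level of oEV-EMT 3. Fkbp8, an outer membrane receptor of autophagosomes, was measured at 19.8, 26.6 and 20.9 FPKM in oEV-EMT and at 14.0, 14.7 and 18.9 FPKM in oEV-ctrl (log2 fold change 0.48, adjusted p = 0.341 by limma). After median-of-ratios scaling 0 of the 15 genes had groups that did not overlap, while 20.1% of all tested genes did not overlap. Under the same scaling, 2 regulators of fission were higher and 3 lower in oEV-EMT without overlap. The regulators of fusion, the genes around PINK1 and those of mitochondrial transport each held 0 higher and 1 lower.

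The MICOS complex and its partners hold the junctions of the cristae, on which OPA1 also acts. Of their 11 tested genes 1 did not overlap, Immt, which encodes the central subunit mitofilin. It was measured at 69.8, 66.3 and 69.7 FPKM in oEV-EMT and at 65.9, 43.0 and 54.5 FPKM in oEV-ctrl (log2 fold change 0.35, adjusted p = 0.459 by limma). The median relative log2 fold change of the list was 0.09. After median-of-ratios scaling 1 gene of the list was higher and 1 lower in oEV-EMT without overlap.

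Since Bnip3 is a known target of the hypoxia response, 22 further targets were looked at, of which 14 were tested. Of these 0 were called, 4 did not overlap with oEV-EMT higher and 2 with oEV-EMT lower, and the median relative log2 fold change was 0.09. Slc2a1, the glucose transporter GLUT1, was measured at 10.2, 6.79 and 4.68 FPKM in oEV-EMT and at 1.94, 2.46 and 4.35 FPKM in oEV-ctrl. Its log2 fold change was 1.06 (adjusted p = 0.179 by limma). Ankrd37 was measured at 4.34, 3.31 and 4.4 FPKM in oEV-EMT and at 1.83, 1.59 and 2.03 FPKM in oEV-ctrl (log2 fold change 0.83, adjusted p = 0.164 by limma). Bnip3, at 0.02 relative, lay below the median of this list.

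**Figure D5:**
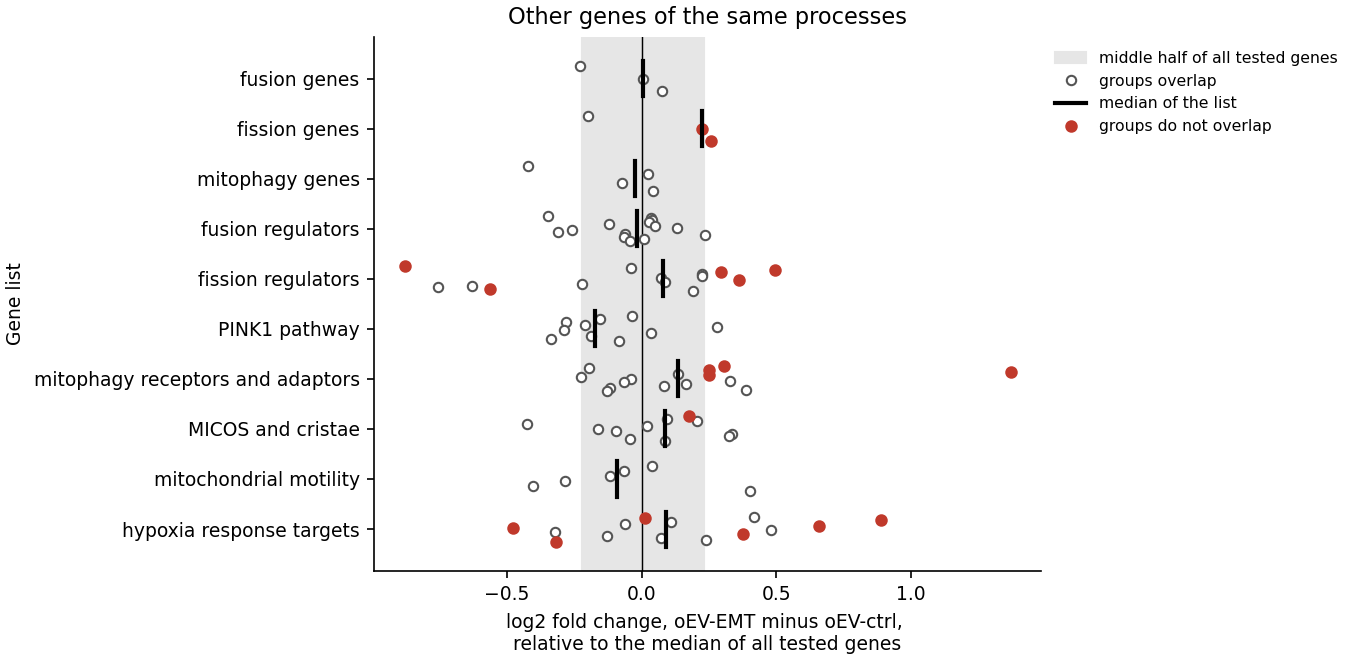
Log2 fold change (oEV-EMT minus oEV-ctrl) of each tested gene, relative to the median of all tested genes, for the 10 genes by role and for 7 lists of other genes, with filled points where the groups did not overlap. The grey band spans the quartiles of all tested genes, -0.22 to 0.23, and the medians of all lists lie inside it.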

How the data were processed

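RNA sequencing of 6 libraries was analysed, 3 per group, grouped by the sample titles. The authors deposited 1 table of 55774 rows with 1 value per gene and library, which were taken as FPKM (fragments per kilobase and sequencing depth), since the sums per library lay between 1.293e+06 and 1.552e+06. The methods of the study speak of TPM, which would have the same sum in every library. The submitters' processing notes name StringTie and mm10. The aligner, the strand setting of the counting and the treatment of reads with several matches were not given in the sources used here. The design assumed a count test where counts were deposited and limma otherwise, and limma was used. Read totals were not given. The derived depth comes from the smallest steps between low values of genes with 1 transcript.

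Members and lists were chosen with earlier results of these data known. Genes reaching 1 FPKM in 3 or more libraries were kept, and the two-sided test of limma 3.58.1 (R 4.3.3; variance trended and robust) on log2(FPKM + 1) was adjusted by Benjamini-Hochberg over these 11924 genes. Ratios were compared by exact permutation tests (scipy 1.17.1). The procedure was run on simulated data as a check, and its recovery of changes as small as those of the members was not tested. All 10 members were named with the value of every library. From each other list the called genes were named or, with 0 called, the up to 2 genes with the largest relative log2 fold change in size among those whose groups did not overlap. Mtfp1, Mtfr1, Pgam5, Nanog, Pou5f1, Fgf4, Sox2, Esrrb, Klf2, Gata4, Sox7, Dab2, Gata6, Cd68, Zp3, Ooep, Dnm2, Sqstm1 and Xist were named after their values were seen. From the pathway lists 1 gene was left out and is not reported here. Coordinates are from GENCODE M21 (GRCm38). Shared sequence was searched as identical stretches of 50 bases on either strand. Alternatives covered scaling, pseudocount, filter, variance model, leave-one-out fits and a replicate block. matplotlib 3.10.9 drew the figures.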

Additional observations from a re-analysis of the deposited data

How the results depend on the processing

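The count of 0 members called was the same in all 18 alternatives. The count of members whose groups did not overlap, 2 as reported, was 0 under median-of-ratios scaling, 0 under upper quartile scaling and 0 under quantile normalization, and 2 to 6 when 1 library was left out, with 6 without oEV-EMT 3 (36.8% of all genes then did not overlap) and 4 without oEV-ctrl 3 (33.9%). The median of the members relative to all genes, 0.014 as reported, was 0.163 with no filter and -0.038 to 0.033 with 1 library left out. The 0 genes called over the table became 104 with array quality weights, and 0 to 16 with 1 library left out (4 without oEV-EMT 1, 1 without oEV-EMT 3 and 16 without oEV-ctrl 3), none of them members.

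Most members lay so near 0 that their sign depended on the setting. With libraries scaled to a common sum, Mfn1 was at 0.030 and Dnm1l at 0.063, and without unannotated and mitochondrially encoded genes in that sum Dnm1l was at 0.0094. Median-of-ratios scaling gave -0.0018 for Bnip3 and -0.10 for Bnip3l. Upper quartile scaling gave -0.012 for Mfn2, -0.072 for Bnip3, -0.17 for Bnip3l and -0.04 for Fundc1. Quantile normalization gave -0.16 for Bnip3l and -0.035 for Fundc1. With 1 library left out, the log2 fold changes ran from -0.24 to 0.20 for Mfn1, from -0.19 to 0.12 for Dnm1l, from -0.43 to 0.038 for Pink1 and from -0.0005 to 0.24 for Bnip3l, and that of Dnm1l was 0.09 without oEV-EMT 2. The log2 ratio of Bnip3 to Bnip3l ran from -0.22 to 0.39, and was -0.02 without oEV-ctrl 1, and that of Mff to Fis1 ran from -0.27 to 0.20. The range for Mfn1 to Mfn2 was -0.37 to -0.05. The cause of these changes was not tested.

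The groups share replicate numbers, but same-numbered libraries correlated in their deviations at 0.119, -0.044 and 0.039, so the numbers were not taken to pair the libraries, and oEV-EMT 2 and 3 did not correlate best with their own number. The replicate block called 21 genes of the table and 0 members, and under the block the log2 ratios were -0.24, 0.10 and 0.03 as before. Mfn2 and Pink1 were not tested with the filter of 5 FPKM. Depth limits the values of Mfn2 and Pink1 most.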
